A study of Caenorhabditis elegans with 4 samples.

Results

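The Hedgehog-related and Patched-related genes of Caenorhabditis elegans were followed in whole larvae of the first larval stage (L1), in dve-1(uf171) mutants and in wild type. Members were chosen by name: every gene whose symbol begins with grl, grd, wrt, ptr or ptc and a number. The RefSeq annotation of assembly WBcel235 held 86 such genes, and 80 of them had a value in the deposited table, among 41614 genes in all. The 80 comprised 30 grl, 16 grd, 10 wrt, 22 ptr and 2 ptc genes. No accession of the table was matched to grl-4, grl-32, grd-17, ptr-10, ptr-17 or ptc-2, which were not analysed here.

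There were 2 libraries from dve-1(uf171) mutants and 2 from wild type (WT). Each was made from total RNA of about 1200 synchronized larvae, and all strains were grown at 25 degrees Celsius on plates with E. coli OP50. The labels name no further allele in either group, no drug treatment and no outcrossing, so each genotype rests on the strain as given. The gene dve-1 encodes a homeobox factor that acts in the response to misfolded proteins in mitochondria. Whether the replicates were separate cultures is not stated, so the p-values reflect the spread between these 4 libraries, which may be technical.

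In flies and vertebrates, secreted Hedgehog proteins bind Patched, a membrane protein with a sterol-sensing domain, and this releases Smoothened to act on GLI transcription factors. Nematodes have no clear Hedgehog or Smoothened counterpart, but they have large families of secreted proteins related to Hedgehog: Warthog (wrt), Groundhog (grd) and Ground-like (grl). They also have a large set of Patched-related (ptr) and Patched (ptc) membrane proteins. In worms these genes are known mainly for roles in the epidermis, the cuticle and moulting, and many of the secreted ones are known to be transcribed in pulses, once per moulting cycle.

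The transcript of dve-1 itself stood at 23.4 and 25.5 FPKM in the mutant libraries, against 15.1 and 19.5 FPKM in the WT libraries (limma adjusted p = 0.439); an allele need not alter its RNA level, so this does not check the labels. FPKM is a fragment count scaled by transcript length and by the mapped fragments of the library, so levels can be compared between genes. Across tested genes the correlation of log2 values was 0.862 between the mutant libraries, 0.858 between the WT libraries and 0.808 to 0.836 between genotypes. Summed markers of seam and hypodermis, where many of the genes described here are active, came to 89.4 and 162 FPKM in the mutant and 192 and 214 FPKM in WT. None of the 6 tested epidermal markers passed the limma threshold; nhr-73 was listed at 0 in both mutant libraries and ajm-1 in mutant replicate 1. Intestine markers summed to 3334 and 4526 FPKM in the mutant and 5282 and 5438 FPKM in WT. Both mutant values lay below both WT values in 3 of 6 intestine markers and 3 of 6 epidermal markers. This held for 15.9% of all tested genes. Both lay above in 0 of the 6 intestine and 1 of the 6 epidermal markers, against 28.1% of all tested genes. Neuron markers summed to 758 and 706 FPKM in the mutant and 629 and 706 FPKM in WT. The markers of body wall muscle, pharynx, glia, the excretory system and germ cells also had sums above 0 in every library, and no tested marker of any tissue passed. The part of these marker levels in the results below was not tested, and in whole animals fewer cells of a type and less RNA per cell cannot be told apart.

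Secreted Hedgehog-related genes covered a wide range of levels in L1 larvae, and few carried most of the signal. The most abundant was grd-10 (chromosome IV, 3441055 to 3441841), a short Groundhog gene of 102 codons. It stood at 201 and 380 FPKM in the mutant and at 451 and 381 FPKM in WT. All 4 values were high, and both mutant values lay below both WT values, by less than 1 FPKM for mutant replicate 2 against WT replicate 2. The log2 fold change, mutant over WT, was -0.58 (SE 0.37, limma adjusted p = 0.624). Without mutant replicate 1 it was -0.12, and without mutant replicate 2 it was -1.04.

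This gene lies in a tandem group with 2 other abundant Groundhog genes on the same strand, with gaps of 164 and 602 bp between them. Next to it lies grd-3 (3439671 to 3440453), at 55.3 and 105 FPKM in the mutant and 114 and 88.8 FPKM in WT. The third of the group, grd-13 (3438312 to 3439507), stood at 72.2 and 193 FPKM in the mutant and 210 and 173 FPKM in WT. In all 3 the lowest library was mutant replicate 1, and in all 3 WT replicate 1 was above mutant replicate 2. The fold changes of grd-3 and grd-13 on the log2 scale were -0.39 (SE 0.39) and -0.68 (SE 0.55), and neither passed (limma adjusted p = 0.664 and 0.627). Without mutant replicate 1 the value for grd-13 was 0.02.

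Among Ground-like genes, grl-21 alone made up 73.3% of the summed family level. This gene (chromosome IV, 10737474 to 10738191, 2 exons, 172 codons) is known, together with ptr-24, from work on fat storage and mitochondrial form in the worm. It stood at 225 and 237 FPKM in the mutant and at 184 and 154 FPKM in WT. Both mutant values lay above both WT values. Its log2 fold change of 0.45 (SE 0.13; 95% interval 0.06 to 0.84) did not pass over all genes (limma adjusted p = 0.375).

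Among Warthog genes, wrt-5 led with 60.7% of the summed level, at 55.0 and 40.2 FPKM in the mutant and 62.9 and 47.7 FPKM in WT, and the genotypes overlapped. The next steady member, wrt-3 (chromosome IV, 9473633 to 9477456), stood at 8.32 and 8.88 FPKM in the mutant and at 13.5 and 12.9 FPKM in WT. The WT values were close to each other and well apart from the mutant values. This was the only tested Warthog gene without overlap between genotypes. Its log2 fold change was -0.57 (SE 0.12; 95% interval -0.92 to -0.22), and it did not pass (limma adjusted p = 0.252). An exon of wrt-3 overlaps another annotated gene on the same strand, and no value for that gene was used here.

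At the other end, 13 grl, 6 grd and 2 wrt genes lay under 1 FPKM in every library. The Ground-like genes grl-11 and grl-30 were listed at 0 in all 4. Only genes averaging 1 FPKM or more over the 4 libraries were tested, which kept 14 grl, 9 grd and 6 wrt genes. The 27 secreted members left out reached no more than 1.37 FPKM in any library.

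**Figure D1:**
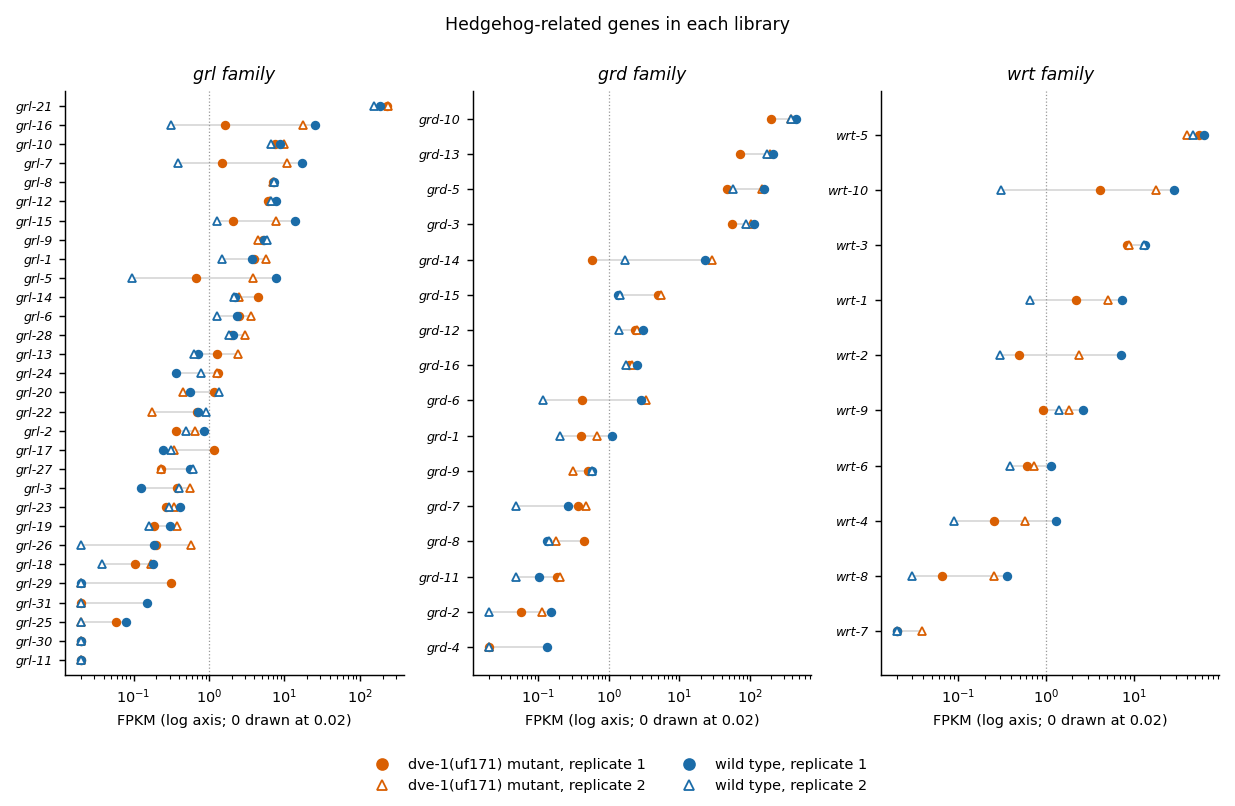
FPKM of each grl, grd and wrt gene in each library on a log axis, with genes ordered by mean, mutant libraries in orange and WT libraries in blue, and values of 0 drawn at 0.02. The dotted line marks 1 FPKM. Wide rows such as grl-16, grl-7 and wrt-10 have WT replicate 1 and mutant replicate 2 at the right and the other libraries at the left.

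A set of secreted genes differed more within each genotype than between genotypes. The Warthog gene wrt-10 (chromosome II, 7533262 to 7534563) stood at 4.09 and 17.8 FPKM in mutant replicates 1 and 2, against 29.0 and 0.305 FPKM in WT replicates 1 and 2. The Ground-like gene grl-16 (chromosome I, 572173 to 575120) stood at 1.64 and 17.8 FPKM in the mutant, against 25.5 and 0.313 FPKM in WT. Both were high in WT replicate 1 and mutant replicate 2 and low in the other libraries, so the genotypes overlapped widely. The WT libraries differed 95-fold for wrt-10 and 81.5-fold for grl-16, and the mutant libraries 4.36-fold and 10.8-fold. These WT folds rest on values under 1 FPKM in WT replicate 2, so their size is uncertain. On the log2(FPKM + 1) scale, replicate 1 minus replicate 2 was 4.52 and 4.34 in WT and -1.89 and -2.83 in the mutant.

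The same arrangement held for grl-7, whose protein is known to be cleared from the epidermis late in embryogenesis with the help of PTR-18. It stood at 1.51 and 10.8 FPKM in the mutant, against 17 and 0.384 FPKM in WT. The Groundhog gene grd-14 (chromosome X, 8500021 to 8501037) had the largest difference of any member between the mutant libraries, 0.575 and 28.9 FPKM, against 23 and 1.68 FPKM in WT. In its case mutant replicate 2, not WT replicate 1, was the highest library. Its neighbour grd-4, 185 bp away on the same strand, had a value above 0 only in WT replicate 1, 0.132 FPKM.

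In all, 9 tested members were at least 2-fold higher in WT replicate 1 than in WT replicate 2 and at least 2-fold higher in mutant replicate 2 than in mutant replicate 1, on the log2(FPKM + 1) scale. They were grl-5, grl-7, grl-15, grl-16, grd-5, grd-6, grd-14, wrt-2 and wrt-10, which is 9 of the 29 tested secreted genes and 0 of the 21 tested ptr and ptc genes. Over all 15202 tested genes, 1.85% showed this arrangement. The 9 were picked by these values, so the count is a description. Their summed level was 59.4 and 241 FPKM in the mutant and 283 and 62.0 FPKM in WT. For 6 of the 9 the order of libraries was WT replicate 1, mutant replicate 2, mutant replicate 1 and WT replicate 2, from high to low. The exceptions were grd-5, grd-6 and grd-14.

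None of these 9 genes was near the threshold between genotypes, and their estimates were wide. For wrt-10 the log2 fold change was 0.64 with a 95% interval of -4.91 to 6.2, and for grl-16 it was 0.26 with an interval of -5.61 to 6.13 (limma adjusted p = 0.912 and 0.976). The sign depended on single libraries. Without WT replicate 2 the values were -1.62 for wrt-10, -1.91 for grl-16 and -1.72 for grl-7, and without mutant replicate 2 they were -0.30, -1.16 and -0.99. For grd-14 the value was -0.22 with all libraries, 1.90 without mutant replicate 1 and 1.36 without WT replicate 1. The more abundant grd-5 stood at 47.9 and 149 FPKM in the mutant, against 158 and 57.5 FPKM in WT. Its value was -0.17 with all libraries, and 0.64 and 0.55 without those same libraries.

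Over all tested members, 11 differed at least 2-fold between the mutant libraries and 11 between the WT libraries, which is 22% in each case, against 13.1% and 13.3% of all tested genes. In 9 members both pairs differed by that much, against 5.1% of all tested genes. Of the 11 that differed between the WT libraries, 11 were higher in WT replicate 1, and 11 were higher in mutant replicate 2. Among all 1196 genes that were at least 2-fold higher in WT replicate 1, 42.1% were higher in mutant replicate 2. Beyond the 9, the members among the 11 were wrt-1 and ptr-4. The gene wrt-1 (chromosome II, 7531156 to 7533246) lies tail to tail with wrt-10, 16 bp apart, and stood at 2.21 and 5.07 FPKM in the mutant and 7.26 and 0.664 FPKM in WT. Across the 50 tested members, the difference between WT replicates 1 and 2 correlated with the difference between mutant replicates 1 and 2 at a Pearson r of -0.81, against -0.06 over all tested genes. All points come from the same 4 libraries, and genes are not independent replicates.

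**Figure D2:**
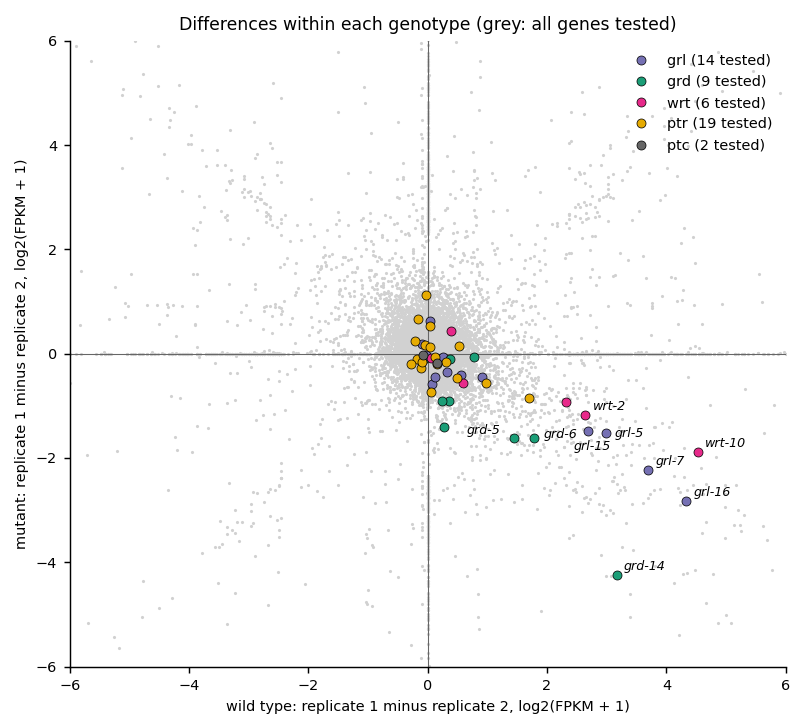
Difference between replicates 1 and 2 of WT (x axis) and of the mutant (y axis) on the log2(FPKM + 1) scale, with tested members coloured by family and all tested genes in grey; 205 genes lie beyond the axes. The 9 labelled members sit at the lower right, high in WT replicate 1 and mutant replicate 2, and most ptr and both ptc genes sit near the centre.

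Other genes of the cuticle and the moult were set beside the members. Of 17 tested cuticle collagen genes, 15 had the library order WT replicate 1, mutant replicate 2, mutant replicate 1, WT replicate 2. So had 10 of 19 precuticle and moulting enzyme genes and 10 of the 50 members, against 2.96% of all tested genes. This order was taken from the 9 members above, 6 of which are among these 10, so the count of members is only a description. The order was found in 1 of 10 moulting cycle regulators and in 0 of 8 endocytosis and trafficking genes needed for moulting. It was also found in 1 of 7 genes that act with TRA-1, the worm GLI homologue. This was her-1, at 3.89 and 6.74 FPKM in the mutant and 10.5 and 0.982 FPKM in WT. Of the seam and hypodermis markers 1 of 6 had it, dpy-7, which is also in the collagen list. No tested marker of the other tissues had it. Summed collagen levels were 84.4 and 444 FPKM in the mutant and 1003 and 34.6 FPKM in WT. The most abundant gene of the collagen list, the cuticlin gene cut-2, stood at 19.4 and 102 FPKM in the mutant and 192 and 10.05 FPKM in WT. The values of sqt-3, a collagen gene, were 8.59 and 53.8 FPKM in the mutant and 136 and 3.36 FPKM in WT. For the precuticle and moulting list the summed levels were 71.4 and 157 FPKM in the mutant and 205 and 66.2 FPKM in WT. In that list mlt-8 stood at 2.91 and 21.1 FPKM in the mutant and 38.0 and 3.34 FPKM in WT, whereas mlt-7, a peroxidase gene, stood at 18.2 and 24.6 FPKM in the mutant and 19.1 and 18.2 FPKM in WT. Of the moulting cycle regulators, lin-42, the worm period homologue, was at 8.49 and 56.6 FPKM in the mutant and 121 and 7.24 FPKM in WT, while myrf-1, a membrane-bound transcription factor gene, was at 16.1 and 25.1 FPKM in the mutant and 27.2 and 34.6 FPKM in WT. Which part the moulting stage of the larvae has in these values was not tested. No gene of the 3 lists passed the limma threshold (0 of 17, 0 of 19 and 0 of 10 tested), and their median log2 fold changes were -0.03, -0.04 and -0.28, against 0.09 over all tested genes.

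The related genes outside the name rule were hog-1 and qua-1. The gene qua-1 (Quahog), which is needed for moulting, stood at 3.81 and 6.71 FPKM in the mutant and 11.9 and 2.05 FPKM in WT. It was highest in WT replicate 1 and lowest in WT replicate 2. As it is also in the precuticle and moulting list, it was already counted there and is not a further case. The gene hog-1 stood at 6.32 and 5.86 FPKM in the mutant and 5.18 and 3.74 FPKM in WT. Neither passed (limma adjusted p = 0.994 and 0.567).

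**Figure D3:**
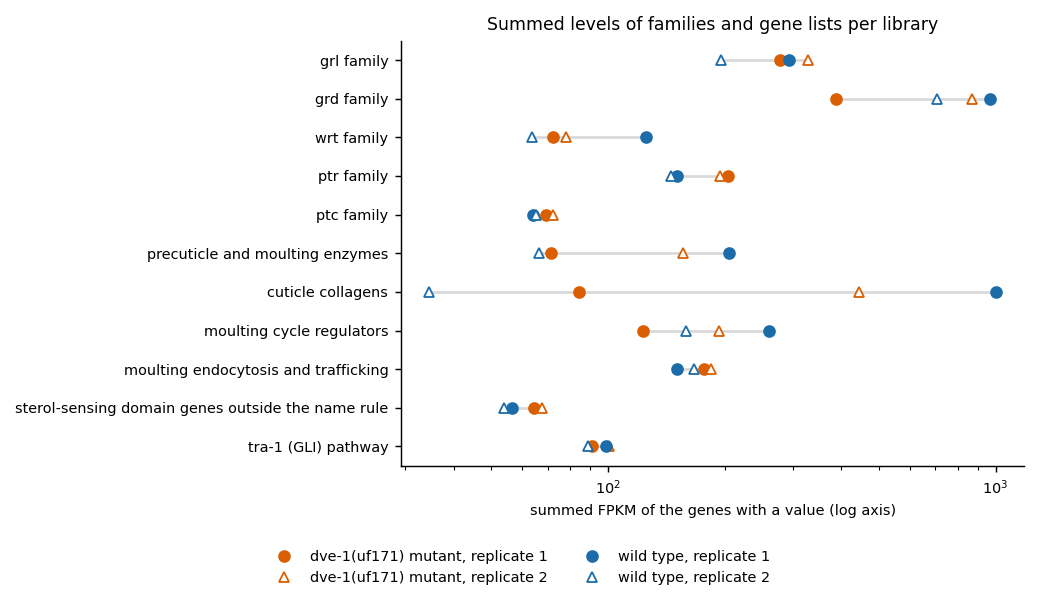
Summed FPKM per library, on a log axis, of the 5 families and of 6 lists of related genes, with mutant libraries in orange and WT libraries in blue. The collagen, precuticle and grd sums spread widely within a genotype, and the wrt sums spread widely within WT. Both mutant sums of the ptr and ptc families lie above both WT sums. The same holds for the sterol-sensing domain list and the moulting endocytosis and trafficking list.

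Between genotypes, none of the 50 tested members passed the limma threshold in either direction, against 0.303% of all tested genes called higher and 1.36% called lower in the mutant, 1.66% in all. With 50 members, these shares are too low for a count of 0 to set the members apart. At an unadjusted limma p under 0.05 there were 7 members higher and 1 lower in the mutant, against 6.28% and 5.58% of all tested genes. The 7 were grd-15, grl-21, ptr-3, ptr-11, ptr-14, ptr-23 and ptr-24, and the 1 was wrt-3. The 8 became 4 without mutant replicate 1, 11 without mutant replicate 2, 4 without WT replicate 1, 2 without WT replicate 2 and 5 under median-ratio scaling.

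The smallest p of any member was that of the Groundhog gene grd-15 (chromosome I, 13564567 to 13566362, 4 exons). It stood at 5.06 and 5.51 FPKM in the mutant and at 1.33 and 1.44 FPKM in WT. The replicates of each genotype were close together and the genotypes far apart. The WT values stood at 0.927, the commonest ratio of low values between the WT libraries described under processing. The depth behind them is unknown, so their closeness may understate the spread within WT. The log2 fold change was 1.40 (SE 0.20; 95% interval 0.81 to 1.99), and it did not pass over all genes (limma adjusted p = 0.117). It passed when limma was run without the intensity trend (adjusted p = 0.0479). With 1 library left out it did not pass in any case (adjusted p = 0.161 to 0.209). An exon of cyn-15, a cyclophilin-type gene on the opposite strand, overlaps grd-15, and no source used here says whether strand was used. The gene cyn-15 stood at 17.2 and 16.8 FPKM in the mutant and at 18.8 and 18.4 FPKM in WT. The part of reads from the overlap in the grd-15 values was not tested.

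For the secreted families as groups, the median log2 fold change was 0.20 over 14 grl genes, -0.17 over 9 grd genes and -0.28 over 6 wrt genes. All 3 medians changed sign with 1 library left out. The grl median was -0.03 without mutant replicate 2 and -0.01 without WT replicate 2. The grd median was 0.15 without mutant replicate 1 and 0.50 without WT replicate 1. The wrt median was 0.38 without WT replicate 1, and it kept its sign without mutant replicate 1, at -0.0014. Both mutant values lay above both WT values in 5 of 14 grl genes (grl-1, grl-6, grl-13, grl-14 and grl-21) and below in 3 (grl-8, grl-9 and grl-12), against 28.1% and 15.9% of all tested genes. Under median-ratio scaling it was 3 above and 3 below. The extremes of these were grl-1, at 3.93 and 5.76 FPKM in the mutant and 3.70 and 1.5 FPKM in WT, and grl-9, at 5.21 and 4.46 FPKM in the mutant and 5.44 and 5.92 FPKM in WT. For grl-1 the log2 fold change was 0.75, and 0.30 without WT replicate 2; for grl-9 it was -0.20. The third most abundant grl gene, grl-10, overlapped between genotypes, at 7.57 and 9.95 FPKM in the mutant and 8.61 and 6.65 FPKM in WT. The grl-14 value is a sum of 3 accessions. All of it was assigned to 1 accession in the mutant and to the other 2 in WT, so only the sum is compared here: 4.43 and 2.52 FPKM in the mutant and 2.22 and 2.12 FPKM in WT. Its exons also overlap sbt-1 on the opposite strand, a gene at 800 and 630 FPKM in the mutant and 701 and 761 FPKM in WT.

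No Patched-related gene passed the limma threshold, and the smallest adjusted p was 0.250. The median absolute difference between replicates of the tested ptr genes on the log2 scale was 0.21 in the mutant and 0.16 in WT, against 0.24 and 0.21 over all tested genes. Of 19 tested ptr genes, 13 had both mutant values above both WT values and 0 had both below, against 28.1% and 15.9% of all tested genes. Summed over the 22 ptr genes with a value, the level was 204 and 194 FPKM in the mutant and 151 and 145 FPKM in WT. The median log2 fold change of the tested ptr genes was 0.45, against 0.09 over all tested genes, and 16 of the 19 values were above 0, against 60.7% of all tested genes. With 1 library left out the ptr median ranged from 0.32 to 0.52. Median-ratio scaling lowered the median of all genes to -0.01 and that of the ptr genes to 0.34, and 12 of 19 ptr genes then lay above WT without overlap, against 19.0% of all tested genes, and 14 of 19 values were above 0. The same scaling turned the split over all genes from 4278 higher and 2410 lower without overlap to 2887 higher and 3579 lower.

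**Figure D4:**
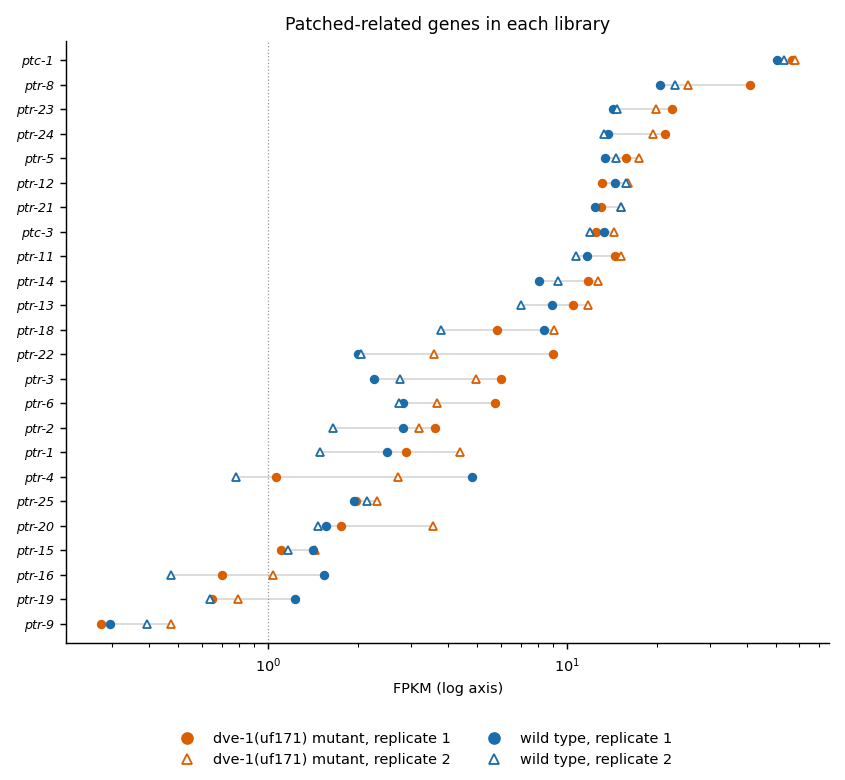
FPKM of each ptr and ptc gene in each library on a log axis, ordered by mean, with mutant libraries in orange and WT libraries in blue. For 14 of the 24 genes both mutant symbols lie to the right of both WT symbols; ptr-4, ptr-16 and ptr-18 spread mainly within a genotype.

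Of the tested tissue markers, 5 of 5 for neurons had a log2 fold change above 0 (median 0.25). For the intestine it was 2 of 6 (median -0.27). The counts were 3 of 5 for body wall muscle, 4 of 6 for pharynx and 4 of 6 for glia. They were 2 of 6 for seam and hypodermis, 2 of 6 for the excretory system and 3 of 4 for germ cells. Over all tested genes 60.7% were above 0 (median 0.09), and no marker passed the limma threshold. The part of the tissue markers in the ptr levels was not tested.

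The most abundant ptr gene was ptr-8 (chromosome II, 10889279 to 10893277), at 41 and 25.4 FPKM in the mutant and 20.4 and 23 FPKM in WT. The gap between the genotypes rested mainly on mutant replicate 1 (log2 fold change 0.56, SE 0.28, limma adjusted p = 0.552), and without it the value was 0.22. An exon of ptr-8 overlaps sra-10 on the opposite strand, which stood at 11.8 and 11.7 FPKM in the mutant and 7.44 and 8.52 FPKM in WT.

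Replicates were closer for ptr-23, which is known for its part in the osmotic stress response of the epidermis. It stood at 22.4 and 19.9 FPKM in the mutant and at 14.3 and 14.7 FPKM in WT. The log2 fold change was 0.52 (SE 0.12; 95% interval 0.16 to 0.88; limma adjusted p = 0.305). The partner of grl-21 named above, ptr-24 (chromosome X, 13338028 to 13348125, 892 codons), stood at 21.2 and 19.4 FPKM in the mutant and at 13.7 and 13.3 FPKM in WT. Its summed values were apart by more than the spread within either genotype, with a log2 fold change of 0.55 (SE 0.11, 95% interval 0.21 to 0.89). Its p was the smallest of the Patched-related genes, but it did not pass over all genes (limma adjusted p = 0.250). The sum joins 2 RefSeq entries, and the larger stood at 17.7 and 13.3 FPKM in the mutant and 11.9 and 9.24 FPKM in WT. For that entry the gap between genotypes was smaller than the spread within either. With it alone the log2 fold change was 0.51 (limma adjusted p = 0.526). With 1 library left out the adjusted p of ptr-24 was 0.298 to 0.524.

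Among less abundant ptr genes, the largest log2 fold change was that of ptr-22 (chromosome V, 18919221 to 18931379). It stood at 8.96 and 3.59 FPKM in the mutant and at 1.99 and 2.04 FPKM in WT. The mutant replicates differed 2.50-fold from each other, more than mutant replicate 2 differed from WT, and the fold change of 1.16 (SE 0.46) did not pass (limma adjusted p = 0.474). It was 0.60 without mutant replicate 1. For ptr-3 the values were 6.04 and 4.96 FPKM in the mutant and 2.26 and 2.76 FPKM in WT, which differ by 0.89 on the log2 scale (SE 0.20; limma adjusted p = 0.296). The mutant values of ptr-3 were well apart from the WT values. The genes ptr-11 and ptr-14 stood between 11.8 and 15.2 FPKM in the mutant libraries and between 8.09 and 11.7 FPKM in the WT libraries.

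The 6 tested ptr genes that overlapped between genotypes were ptr-4, ptr-12, ptr-15, ptr-18, ptr-21 and ptr-25. Of these, ptr-12 stood at 13.1 and 16.0 FPKM in the mutant and at 14.5 and 15.8 FPKM in WT. The gene ptr-21 stood at 13 and 15.2 FPKM in the mutant and at 12.4 and 15.2 FPKM in WT. Their 95% intervals on the log2 scale were -0.52 to 0.40 for ptr-12 and -0.47 to 0.53 for ptr-21. The gene ptr-4, which is needed to build the precuticle matrix, stood at 1.07 and 2.71 FPKM in the mutant and at 4.81 and 0.784 FPKM in WT, the same arrangement as wrt-10. The gene ptr-18, known for keeping progenitor cells quiescent in arrested L1 larvae, stood at 5.82 and 9.02 FPKM in the mutant and at 8.39 and 3.79 FPKM in WT. It too was higher in WT replicate 1 and mutant replicate 2 than in the other libraries.

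The ptc genes encode the closest relatives of fly Patched; ptc-1 is known for cytokinesis in the germ line and ptc-3 for osmotic regulation. The most abundant Patched-related gene of all was ptc-1 (chromosome II, 7893222 to 7900515), at 56.8 and 57.8 FPKM in the mutant and 50.6 and 53.4 FPKM in WT. Both mutant values lay above both WT values, by a log2 fold change of 0.14 (95% interval -0.15 to 0.43; limma adjusted p = 0.627), beside a median of 0.09 over all tested genes. Under median-ratio scaling and quantile normalization its genotypes overlapped. The gene ptc-3 stood at 12.5 and 14.4 FPKM in the mutant and at 13.4 and 11.9 FPKM in WT, with overlap and a 95% interval of -0.33 to 0.50. That value sums 3 accessions: in mutant replicate 1 most of it, 10.4 FPKM, was listed under an accession at 0 in the other libraries. With the most abundant accession alone the log2 fold change of ptc-3 was -0.88.

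**Figure D5:**
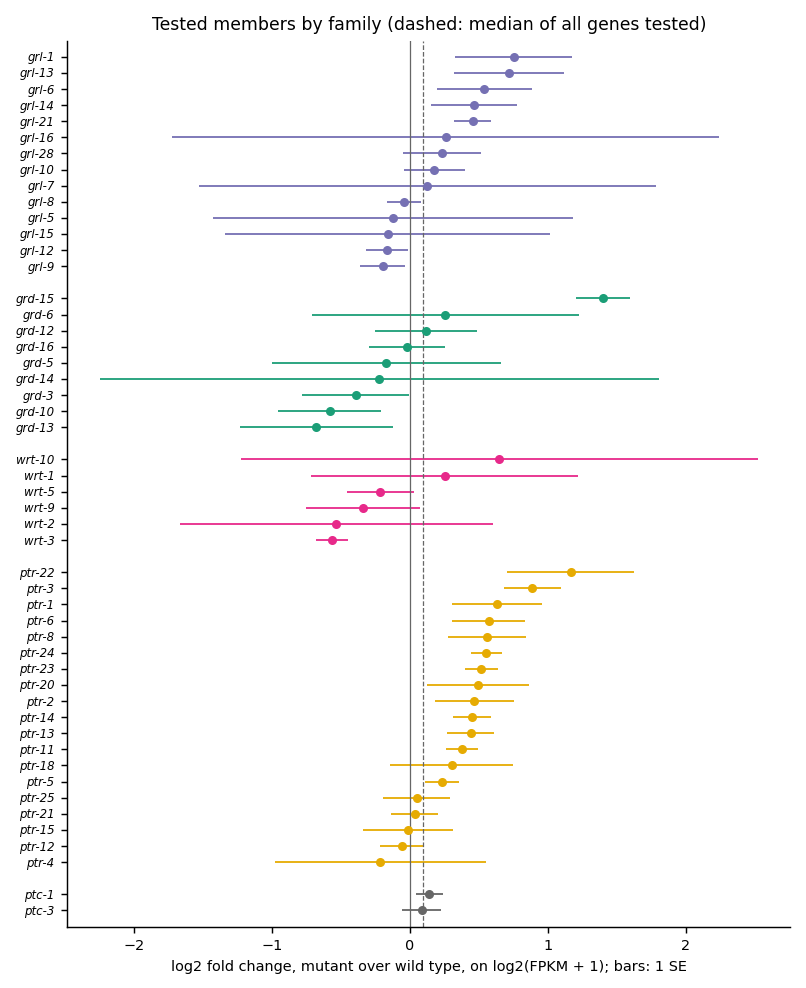
Log2 fold change, mutant over WT, of the 50 tested members by family, with bars of 1 SE on the log2(FPKM + 1) scale and a dashed line at the median of all tested genes, 0.09. The ptr genes lie mostly to the right of the dashed line with short bars, while the secreted genes that differ within a genotype have long bars; none passed the limma threshold.

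Other genes with a sterol-sensing domain were also measured. Their summed level was 64.5 and 67.6 FPKM in the mutant and 56.4 and 53.8 FPKM in WT, and the median log2 fold change of the 5 tested was 0.27. The most abundant were hmgr-1, which encodes HMG-CoA reductase, at 29.7 and 31.3 FPKM in the mutant and 27.5 and 24.7 FPKM in WT, and ncr-1, a Niemann-Pick C1 homologue, at 21.2 and 18.1 FPKM in the mutant and 14.2 and 17 FPKM in WT. Both mutant values lay above both WT values in 4 of the 5 tested, hmgr-1 and ncr-1 among them, and below in 0. Over all tested genes 28.1% lay above and 15.9% below. None of the 5 passed (0 higher and 0 lower by limma). Of the genes that act with TRA-1, the worm GLI homologue, 0 of 7 passed, with a median of 0.15. The gene tra-1 stood at 17.8 and 23.1 FPKM in the mutant and 30.2 and 25.4 FPKM in WT, and fem-1 at 23.4 and 24.7 FPKM in the mutant and 20.2 and 20.5 FPKM in WT. Endocytosis and trafficking genes needed for moulting also gave 0 of 8, with a median of 0.19. In 5 of these 8 both mutant values lay above both WT values, and in 0 both lay below. The clathrin heavy chain gene, chc-1, stood at 74.8 and 77.3 FPKM in the mutant and 61.9 and 78.7 FPKM in WT. The Disabled homologue dab-1 stood at 22.7 and 33.5 FPKM in the mutant and 29.0 and 28.8 FPKM in WT.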

How the data were processed

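The tools named for alignment and quantification, per the submitters' processing notes, are TopHat2 and Cufflinks, and the build is ce11; no source used here gives versions, strand or the handling of multiply aligned reads. The deposited values were taken as FPKM, 1 per RefSeq accession and library, from those tools and the form of the values, since the file header names no unit. Of 52491 accessions, 47645 matched a RefSeq gene of WBcel235 (the assembly of ce11) without their version, and FPKM were summed per gene. Unmatched accessions held 20.9% to 21.7% of summed FPKM and were not tested. Positions come from RefSeq; exons, codons and overlaps come from Ensembl's WBcel235 annotation.

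The 15202 genes averaging 1 FPKM or more were tested on log2(FPKM + 1) values using limma 3.58.1 (R 4.3.3) and its intensity trend, two-sided, with Benjamini-Hochberg adjustment over all of them and a threshold of 0.05. Fold changes on this scale understate those of low genes. The limma step was tested on simulated data, where it recovered 41.8% of 2-fold and 98.5% of 4-fold changes. The changed genes were drawn from the more abundant ones, and changes under 2-fold were not simulated. Simulated spreads followed a smooth trend with level, and each gene varied independently of the others. The recovered shares therefore do not hold for members that differ widely within a genotype, such as grd-14 (SE 2.02). Members and gene lists were chosen with earlier results of these data known. Named genes were dve-1; the 3 most abundant members per family; the largest difference each way without overlap per family; the 3 largest differences within each genotype; members past the threshold; and from each other list those past the threshold or the 2 most abundant. Others described (such as grd-3, wrt-1, ptr-3, ptr-4, ptr-11, ptr-12, ptr-14, ptr-18, ptr-21 and genes with overlapping exons) were named after their values were seen. Alternatives were other pseudocounts, filters, scalings, variance models, 1 accession per gene, a replicate block and each library left out.

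Summed FPKM were 2.25e+06 and 2.05e+06 in the mutant libraries and 2.39e+06 and 2.35e+06 in the WT libraries; fragment totals are not part of the table. Of 1714 accessions under 0.3 FPKM in WT replicate 1, 365 stood at 1 ratio between the WT libraries, 0.927 (tolerance 0.0002), but no other pair of libraries shared a step for more than 8, so whole reads were not recovered. The depth behind each value is therefore unknown and no counting interval is given.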

Additional observations from a re-analysis of the deposited data

How the results depend on the processing

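Of the 50 tested members, 0 were called higher and 0 lower by limma under every alternative except limma without the intensity trend, which called 1 higher (grd-15). Counts over all genes (46 higher, 206 lower) moved far more. Higher calls numbered 83 with a pseudocount of 0.01 FPKM, 78 without a filter, 15 at a mean of at least 5 FPKM, 83 without trend, 112 at a threshold of 0.1, 17 among protein-coding genes and 3 among genes above 0 in all 4 libraries; the last 2 settings were added after the data had been seen. Lower calls numbered 90 at a mean of at least 5 FPKM, 331 at a threshold of 0.1 and 51 among genes above 0 in all 4 libraries. With 1 library left out there were 89 to 425 higher and 37 to 678 lower calls; the lone library of a genotype is then assumed to vary like the others.

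With the replicate number as a block, 0 genes were called higher and 0 lower (limma; 1166 had an unadjusted p under 0.05, 3 of them members). Deviations of same-numbered libraries correlated at -0.06, so the numbers give no sign of pairing.

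The ptc median (0.11) was -0.0063 under median-ratio scaling, 0.047 under quantile normalization and -0.37 with 1 accession per gene; the ptc-3 value was then -0.031 under median-ratio scaling and -0.88 with 1 accession, and grl-7 was -0.84 with 1 accession. In every alternative run, those with 1 library left out included, the other family medians moved by less than 1 SD. This is the SD of the family's median level between libraries of a genotype. It was 0.92 for grl, 1.95 for grd, 1.31 for wrt and 0.46 for ptr, each larger in size than the median itself. Such a limit is loose and does not show that the medians were stable. The grl, grd and wrt medians changed sign with 1 library left out. With 1 library left out, 9 of the 20 members described by the naming rule changed sign. They ranged from -1.39 to 0.023 (grd-13), from -2.35 to 1.90 (grd-14), from -0.98 to 0.64 (grd-5), from -0.00060 to 0.35 (grl-10), from -1.91 to 2.42 (grl-16), from -1.72 to 1.97 (grl-7), from -0.0098 to 0.18 (ptc-3), from -1.62 to 2.91 (wrt-10) and from -0.44 to 0.0057 (wrt-5). Others were not followed singly, but counts above 0 moved from 3 to 8 of 9 grd genes and from 16 to 19 of 19 ptr genes without mutant replicate 1, and to 14 ptr genes without mutant replicate 2. The cause of these moves was not tested. Fragment depth is unknown, so differences among members under 1 FPKM are not interpreted.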
